A study of Homo sapiens with 4 samples.

Results

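The enzymes described here make and balance the deoxynucleotides from which DNA is built. They were chosen by gene symbol from a list of 9 genes: RRM1, RRM2, RRM2B, TK1, TYMS, DUT, DCTPP1, DTYMK and SAMHD1. Of these, 8 had a row among the 6828 genes of the deposited table, and SAMHD1 was not analysed here. All 8 passed a minimum mean value of 10. The RNA came from A549 cells, an epithelial line from a human lung adenocarcinoma grown in medium with serum and antibiotics, 72 h after infection with lentivirus. The virus expressed control shRNA (shctrl, 2 libraries) or shRNA against the long noncoding RNA USP2-AS1 (shUSP2-AS1, 2 libraries), and which of the study's USP2-AS1 shRNAs was used is not given in the sources used here. The comparison asked which transcripts depend on USP2-AS1. The study describes the libraries of a group as biological replicates.

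Ribonucleotide reductase turns ribonucleotides into deoxyribonucleotides and is the committed step of the de novo route. Its large subunit, RRM1, pairs with the small subunit RRM2, which cycling cells make in S phase, or with RRM2B, a small subunit induced by DNA damage that also serves non-dividing cells. Thymidine nucleotides come from TYMS, which methylates dUMP, and from TK1, which salvages thymidine, while DUT and DCTPP1 remove unwanted triphosphates and DTYMK phosphorylates dTMP.

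Transcripts of 7 of these enzymes were lower after USP2-AS1 knockdown and that of RRM2B was higher. TK1 and RRM2 stood lowest against control, at 16.8% and 19.8% of the shctrl mean, followed by RRM1 at 28.5%. DTYMK, DUT, TYMS and DCTPP1 lay close together, at 45.6% to 47.0%. RRM2B stood at 160% of the shctrl mean. Values are normalised read counts, that is, reads on a gene divided by a size factor of the library. A gene was called where the adjusted p was below 0.05 and the log2 fold change was 1 or more in either direction, from limma on log2(value + 1) with Benjamini-Hochberg adjustment over the 6812 genes tested.

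By these thresholds 7 of the 8 enzymes were called lower and 0 higher. Of all genes tested, 13.5% were called lower and 16.1% higher. The table lists only genes that had already passed an adjusted p below 0.05 in the authors' comparison of the same libraries, and 6811 of 6812, or 100%, passed it again here. The adjusted p therefore separates no gene from another in this table, and the fold change carries the call. The same filter favours genes whose groups do not overlap, and the share of all genes without overlap was not computed. Absence of overlap is therefore given below only as a description of the values. With no fold threshold RRM2B is counted as higher as well, by limma, edgeR and DESeq2. The median log2 fold change was -1.12 over the 8 enzymes and 0.19 over all genes tested.

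**Figure D1:**
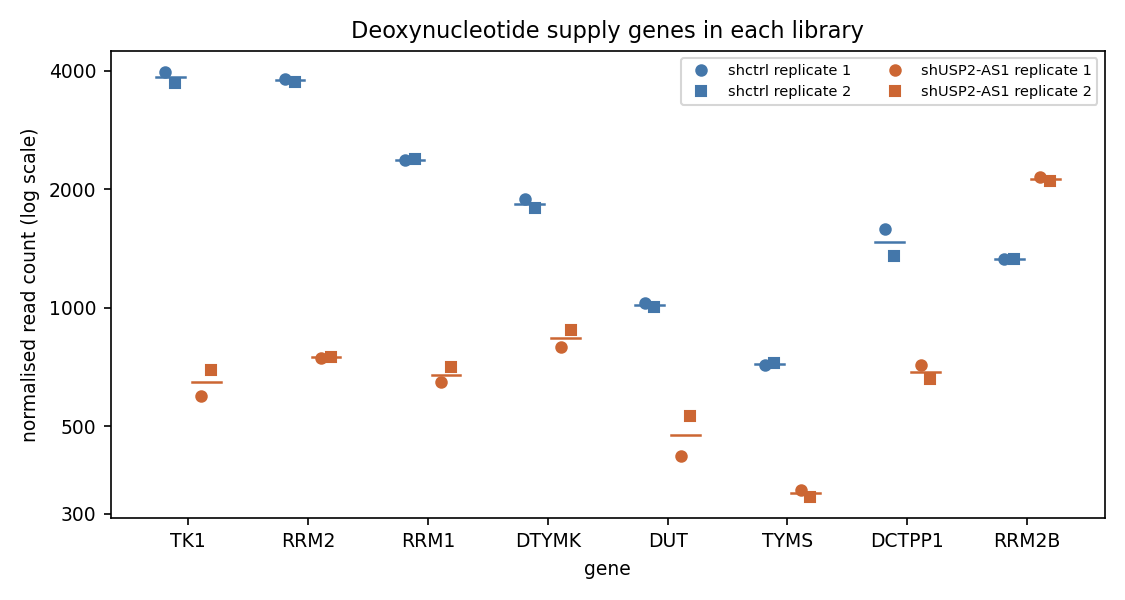
Normalised read count (log axis) of the 8 genes in each library, with circles for replicate 1, squares for replicate 2 and a line at the mean of each group. The shUSP2-AS1 mean lies below the shctrl mean for 7 genes, such as RRM2 at 748 and 751 against 3818 and 3744, and above it for RRM2B.

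The reads on listed genes came to between 10772788 and 14120472 per library, which is a part of each library. Replicates differed by more than the sampling noise, with a chi-square per degree of freedom of 3.72 in shctrl and 3.83 in shUSP2-AS1. Reads on USP2-AS1, the targeted gene, numbered 24 and 22 in shctrl against 2 and 7 in shUSP2-AS1, with a log2 fold change of -2.39 (SE 0.56, limma adjusted p = 0.000597) that was -1.78 without shUSP2-AS1 replicate 1 and -2.99 without shUSP2-AS1 replicate 2. Of 11 markers of A549 and epithelial cells, 7 were listed, with a summed value of 359460 to 401550 per library, and only KRT18 was called, lower by limma at a log2 fold change of -1.05. Of 12 markers of leucocytes, endothelium and fibroblasts, 1 was listed, the collagen gene COL1A1, at 261 and 293 in shctrl and 530 and 618 in shUSP2-AS1, and its part in the results was not tested. Fewer cells with a transcript and less transcript per cell cannot be told apart in these bulk libraries.

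RRM2, the S phase small subunit of ribonucleotide reductase, had normalised counts of 3818 and 3744 under control shRNA and of 748 and 751 after knockdown. The replicates of each group lay within 1.95% of one another and the groups were far apart. The mean fell from 3781 ± 52.0 to 749 ± 2.35 (SD, n = 2 per group), a 5.04-fold decrease and a log2 fold change of -2.33 (SE 0.06, limma adjusted p = 1.32e-15). The gene, ENSG00000171848, lies on the plus strand of chromosome 2 at chr2:10120698-10211725 in GRCh38. GENCODE release 44 names 3 pseudogene copies of RRM2, so that its share of reads is less certain than that of a single-copy gene.

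RRM1, the large subunit that binds substrate and the nucleotides that regulate the enzyme, was at 2365 and 2384 in shctrl and at 647 and 706 in shUSP2-AS1. Both knockdown libraries were below both control libraries. Its mean fell from 2375 ± 12.9 to 676 ± 42.0, a log2 fold change of -1.81 (SE 0.07, limma adjusted p = 9.13e-14). RRM1 (ENSG00000167325) lies on the plus strand at chr11:4094707-4138932, and 1142 bases near its 3' end overlap the antisense RRM1-AS1.

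RRM2B, the damage-inducible small subunit, was measured at 1331 and 1329 in shctrl and at 2153 and 2095 in shUSP2-AS1. It was the 1 enzyme of the 8 with a higher mean after knockdown. The mean went from 1330 ± 1.34 to 2124 ± 41.1, a 1.60-fold difference and a log2 fold change of 0.67 (SE 0.06, limma adjusted p = 6.31e-09), which is under the fold threshold. Over the 15 alternatives run for each enzyme, its log2 fold change stayed between 0.56 and 0.74. RRM2B (ENSG00000048392) lies on the minus strand of chromosome 8 at chr8:102204502-102238961.

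The 3 subunits were compared per kb of gene length, with the lengths given in the table. RRM2B made up 37.2% and 37.6% of small-subunit transcripts (RRM2B over RRM2 plus RRM2B) in shctrl, against 83.0% and 82.6% in shUSP2-AS1. RRM2B was thus the minor small-subunit transcript in both control libraries and the major one in both knockdown libraries. The share differed by 45.4 percentage points (37.4% ± 0.298 against 82.8% ± 0.320, SD, n = 2), and the exact two-sided permutation test over libraries gave p = 0.333, the smallest that 2 against 2 libraries allow. A share within a library does not depend on how libraries are scaled.

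The gene length in the table is 9155 bases for RRM2 against 3258 for its canonical GENCODE transcript, and 5391 against 4774 for RRM2B. With canonical lengths the share was lower at 19.2% and 19.5% in shctrl and 66.3% and 65.6% in shUSP2-AS1. The order of RRM2 and RRM2B turned over between the groups with either length, and also without division by length, where the means were 26.0% and 73.9%.

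Both small subunits together went from 660 ± 5.93 to 476 ± 7.36 normalised reads per kb, or 72.1% of shctrl, with the table lengths, and to 46.9% with canonical lengths. RRM1 went to 28.5%, so the ratio of small to large subunit transcripts was higher after knockdown. It was 1.19 and 1.16 in shctrl and 3.15 and 2.82 in shUSP2-AS1, a 2.54-fold difference between the means with the table lengths and 1.65-fold with canonical lengths (exact permutation p = 0.333, again the smallest possible). RRM2 to RRM1 fell to 69.7% of its shctrl ratio while RRM2B to RRM1 stood at 5.62 times its shctrl ratio, whatever the length, and in neither ratio did the groups overlap.

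**Figure D2:**
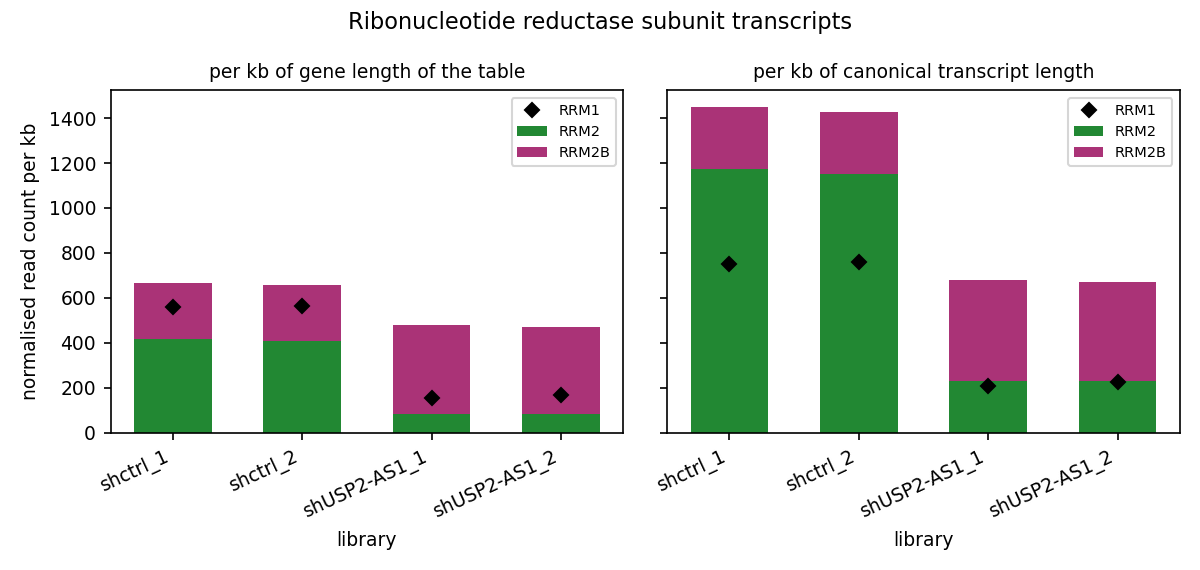
Normalised read count per kb in each library for the small subunits RRM2 and RRM2B (stacked bars) and the large subunit RRM1 (diamonds), divided by the gene length of the table (left) or the canonical transcript length (right). RRM2B is the smaller part of the bar in both shctrl libraries (37.2% and 37.6% on the left) and the larger in both shUSP2-AS1 libraries (83.0% and 82.6%).

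TK1, the S phase thymidine kinase of the cytosol, had values of 3967 and 3717 in shctrl and 598 and 696 in shUSP2-AS1. It had the largest fold change of the 8 enzymes, and the groups did not overlap. The mean fell from 3842 ± 177 to 647 ± 68.7, a log2 fold change of -2.57 (SE 0.07, limma adjusted p = 5.42e-15). TK1 (ENSG00000167900) lies on the minus strand at chr17:78174091-78187233.

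TYMS, thymidylate synthase and a target of fluoropyrimidine drugs, was at 718 and 723 in shctrl and at 345 and 332 in shUSP2-AS1. Its replicates were close in both groups, within 3.84% of one another. Its mean fell from 721 ± 3.67 to 338 ± 9.19, a log2 fold change of -1.09 (SE 0.09, limma adjusted p = 2.33e-09). TYMS (ENSG00000176890) lies on the plus strand at chr18:657653-673578.

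The last 3261 bases of TYMS, chr18:670318-673578, overlap ENOSF1, a gene on the opposite strand. ENOSF1 was at 724 ± 7.64 in shctrl and 920 ± 22.3 in shUSP2-AS1 (log2 fold change 0.34, not called). Whether reads were counted by strand is not given in the sources used here, so reads of TYMS and ENOSF1 from the shared bases may not be told apart. GENCODE names 2 pseudogene copies of TYMS.

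The salvage and de novo routes to dTMP did not fall by the same factor. Per kb of table length, TK1 transcripts were 7.25 and 6.74 times those of TYMS in shctrl, against 2.28 and 2.75 times after knockdown. The ratio after knockdown was 35.9% of that in control, without overlap between the groups (exact permutation p = 0.333, the smallest possible). This ratio was chosen after the values were seen.

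DTYMK, thymidylate kinase, takes dTMP from both routes on to dTDP. Its values were 1889 and 1789 in shctrl and 797 and 880 in shUSP2-AS1, and the groups did not overlap. The mean fell from 1839 ± 70.7 to 839 ± 58.9, a log2 fold change of -1.13 (SE 0.07, limma adjusted p = 6.23e-11). DTYMK (ENSG00000168393) lies on the minus strand at chr2:241675747-241686944.

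DUT, the dUTPase that yields dUMP for TYMS and keeps uracil out of DNA, was at 1030 and 1003 in shctrl and at 422 and 530 in shUSP2-AS1. The knockdown libraries differed by 22.8% of their mean, the widest replicate gap among the 8 enzymes, yet both lay well below the controls. The mean fell from 1017 ± 18.9 to 476 ± 76.6, a log2 fold change of -1.10 (SE 0.09, limma adjusted p = 6.36e-09). Without shUSP2-AS1 replicate 1 the log2 fold change was -0.94 and DUT was no longer called. DUT (ENSG00000128951, plus strand, chr15:48331011-48343373) has 8 pseudogene copies named in GENCODE and shares 846 bases with the antisense DUT-AS1.

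DCTPP1, a dCTP pyrophosphatase that clears dCTP and its modified forms, was at 1583 and 1352 in shctrl and at 715 and 661 in shUSP2-AS1. The groups did not overlap, although the control libraries were 15.7% apart. The mean fell from 1467 ± 163 to 688 ± 38.1, a log2 fold change of -1.09 (SE 0.08, limma adjusted p = 7.91e-10), and without shctrl replicate 1 it was -0.97 and not called. DCTPP1 (ENSG00000179958) lies on the minus strand at chr16:30423615-30430030, inside the interval of ZNF771 on the other strand.

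A stricter test was passed by 3 of the 7 lower enzymes. When limma tested for a change of more than 2-fold, TK1, RRM2 and RRM1 passed (adjusted p = 1.10e-11, 7.19e-12 and 1.40e-08), which 7.68% of all genes tested did in the lower direction. DTYMK, DCTPP1, DUT and TYMS did not pass it (limma adjusted p = 0.172, 0.589, 0.602 and 0.659), and their log2 fold changes of -1.09 to -1.13 lay just past the threshold of 1. The variances of this test were moderated over genes already filtered by the authors' adjusted p, so its p-values are conditional on that filter. Scaling the reads by DESeq2's median of ratios moved the median of all genes by -0.12 on the log2 scale, and every enzyme kept its direction and its call under that scaling.

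**Figure D3:**
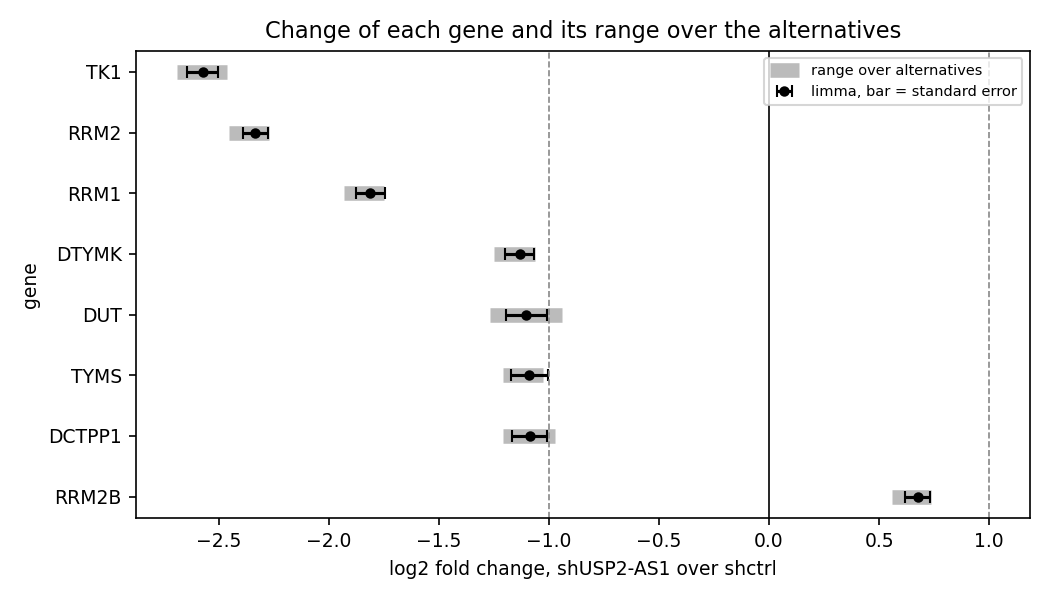
Log2 fold change of each gene, shUSP2-AS1 over shctrl, with the limma estimate (point), its standard error (black bar), the range over 15 alternatives (grey) and the thresholds of -1 and 1 (dashed). TK1, RRM2 and RRM1 lie well past -1, while DUT reaches -0.94 and DCTPP1 -0.97 at the upper end of their ranges.

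The order of the transcript levels per kb also changed. With the table lengths, TK1 was the highest of the 8 in shctrl at 2082 ± 95.7 normalised reads per kb, and RRM2B the lowest at 247 ± 0.249. Between them came DCTPP1 (953), DTYMK (767), RRM1 (561), RRM2 (413), TYMS (298) and DUT (277), and no neighbours in this order overlapped between libraries. In shUSP2-AS1 RRM2 was the lowest of the 8, at 81.9 ± 0.257, and RRM2B had moved to the second highest, at 394 ± 7.62, after DCTPP1 at 447. TK1 (351) and DTYMK (350) overlapped there, as did TYMS (140) and DUT (130), with RRM1 (160) between the pairs. With canonical lengths TK1 was still the highest and RRM2B the lowest in shctrl, but RRM2 stood at 1161 there and at 230 after knockdown, which was the fifth and not the last rank. RRM2B then stood at 445 after knockdown, behind DTYMK (798), DCTPP1 (583) and TK1 (452), and it overlapped TK1 between libraries.

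The sequence upstream of the start site is shown for the enzymes whose promoters held words bound by regulators of S phase genes. RefSeq promoters (GRCh38.p14, from 250 bases before the start to 50 after) were matched for 7 of the 8, all but RRM2B. The words searched, on both strands, were CCAAT, the box bound by NF-Y, TTTGAA, the cell cycle homology region (CHR), and for E2F either the 8-letter words TTTCCCGC, TTTCGCGC, TTTGCCGC and TTTGGCGC or the same without their first T. Each 8-letter match is also a 7-letter match. CHR below means the word searched, and other forms of the region were not searched. In the following stretches of 30 bases, 5' to 3' on the strand of the gene, capitals mark the word found.
RRM2 CCAAT box, chr2:10122603-10122632: gggcaaggcgcagCCAATgggaagggtcgg
RRM2 CCAAT box, chr2:10122633-10122662: aggcatggcacagCCAATgggaagggccgg
RRM2 CCAAT box, chr2:10122660-10122689: cggggcaccaaagCCAATgggaagggccgg
TK1 CCAAT box (reverse), chr17:78187113-78187142: cggccgggcgctgATTGGccccatggcggc
TK1 CCAAT box (reverse), chr17:78187082-78187111: gggccggctcgtgATTGGccagcacgccgt
TK1 E2F word (7 letters, reverse), chr17:78187047-78187076: aaagcggtcggcGCGGGAAccaggggctta
RRM1 E2F word (7 letters), chr11:4094450-4094479: gcaagaaaaacgTTCCCGCcggttaggttt
RRM1 CCAAT box, chr11:4094644-4094673: ggcatgtccatatCCAATggggcccatggg
RRM1 CHR (reverse), chr11:4094474-4094503: aggttttgttatTTCAAAaataaattaacc
TYMS E2F word (8 letters, reverse), chr18:657603-657632: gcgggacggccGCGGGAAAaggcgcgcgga
DTYMK CCAAT box, chr2:241686891-241686920: gccccggccccggCCAATcccttcgaattt
DTYMK CCAAT box, chr2:241686823-241686852: ctgttgacgccggCCAATgggagctccgga

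RRM2 held 3 CCAAT boxes, beginning 123, 93 and 66 bases before the start, and no E2F word in this window. TK1 held 2 CCAAT boxes (77 and 46 bases before the start) and a 7-letter E2F word 12 bases before it. RRM1, the third that passed the stricter test, held 1 of each and the CHR word searched. The 3 genes that passed it were all among the 4 of 7 with a CCAAT box, the other being DTYMK, and 36.6% of all 15344 promoters held one. A 7-letter E2F word stood in 3 of 7 (RRM1, TK1 and TYMS) against 17.6% of all promoters, and an 8-letter word in 1 of 7 (TYMS) against 4.57%. The CHR word searched stood in 1 of 7 against 11.6%. DUT and DCTPP1 held no such word. The start sites used for RRM1 and DCTPP1 lie 114 and 230 bases from the canonical GENCODE start. A match describes letters in a window and not binding, and the words were chosen after the sequences were seen.

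The genes around these enzymes were described from lists written by role. Measured means here that a gene had a row, and rows were kept only below the authors' adjusted p of 0.05. A gene without a row may have missed that threshold, so counts and medians cover only genes already past it. Of the other deoxynucleoside kinases, DCK and DGUOK were measured (2 of 3 listed), neither was called, and their log2 fold changes were -0.83 and -0.31. DCK, the main salvage kinase for deoxycytidine and purine deoxynucleosides, was at 355 in shctrl and 199 in shUSP2-AS1. Of 13 nucleoside mono- and diphosphate kinases, which act after DTYMK and its relatives, 6 were measured, with a median log2 fold change of 0.00. By limma with both thresholds 0 of them were called, beside 13.5% lower and 16.1% higher of all genes tested. All 6 passed an adjusted p below 0.05 alone, as did 6811 of the 6812 genes tested. They ran from -0.81 for NME4 to 0.94 for AK3, a mitochondrial kinase.

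The folate cycle that feeds TYMS gave 2 called lower and 0 higher among 6 measured of 9, with a median of -0.85. Of all genes tested, 13.5% were called lower and 16.1% higher. MTHFD2, a mitochondrial folate enzyme, fell from 2705 to 1141, a log2 fold change of -1.25.

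Enzymes that break down or sanitise nucleotides went in both directions, with 1 lower and 2 higher among 9 measured of 16 and a median of 0.32. The shares over all genes tested were 13.5% lower and 16.1% higher. NUDT1, which like DUT and DCTPP1 removes unwanted triphosphates (here oxidised purines), fell with a log2 fold change of -1.37. TYMP, thymidine phosphorylase, which degrades the substrate of TK1, rose from 206 to 566 (log2 fold change 1.45), and NT5E, the ecto-nucleotidase CD73, rose from 634 to 1554 (1.30).

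Among the proteins that supply ribonucleotide reductase with electrons, 4 of 8 were measured, with 1 lower, 0 higher and a median of 0.28. TXNRD1, thioredoxin reductase, fell from 33487 to 9672, a log2 fold change of -1.79 (SE 0.05). Its partner thioredoxin, TXN, was at 9018 and 10828, a log2 fold change of 0.27 beside the median of 0.19 over all genes, and was not called. Nucleoside and nucleotide carriers (4 of 7 measured) gave 0 calls by limma with both thresholds, with a median of 0.01. All 4 passed an adjusted p below 0.05 alone, as did 6811 of the 6812 genes tested. By edgeR the number of lower calls was that of limma in each of these lists. Over the 6 lists together, 4 of 31 measured genes were called lower and 2 higher, with a median of -0.34, beside 13.5% lower and 16.1% higher over all genes.

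The regulators of these enzymes were E2F factors and their partners, cyclins and their kinases, ubiquitin ligase subunits, the checkpoint kinase CHEK1 and others. Of 16 listed, 12 were measured, with 8 called lower and 0 higher, beside 13.5% and 16.1% of all genes tested. All 12 had negative log2 fold changes, with a median of -1.56, and listed genes without a row do not enter these values. E2F1, a transcription factor that drives S phase genes, fell from 1280 and 1241 to 276 and 304 (log2 fold change -2.12, SE 0.08, limma adjusted p = 2.36e-13). CCNA2 (cyclin A2), CDK1 and E2F8 had changes of -2.42, -2.40 and -2.30. These lie close to those of TK1 and RRM2.

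**Figure D4:**
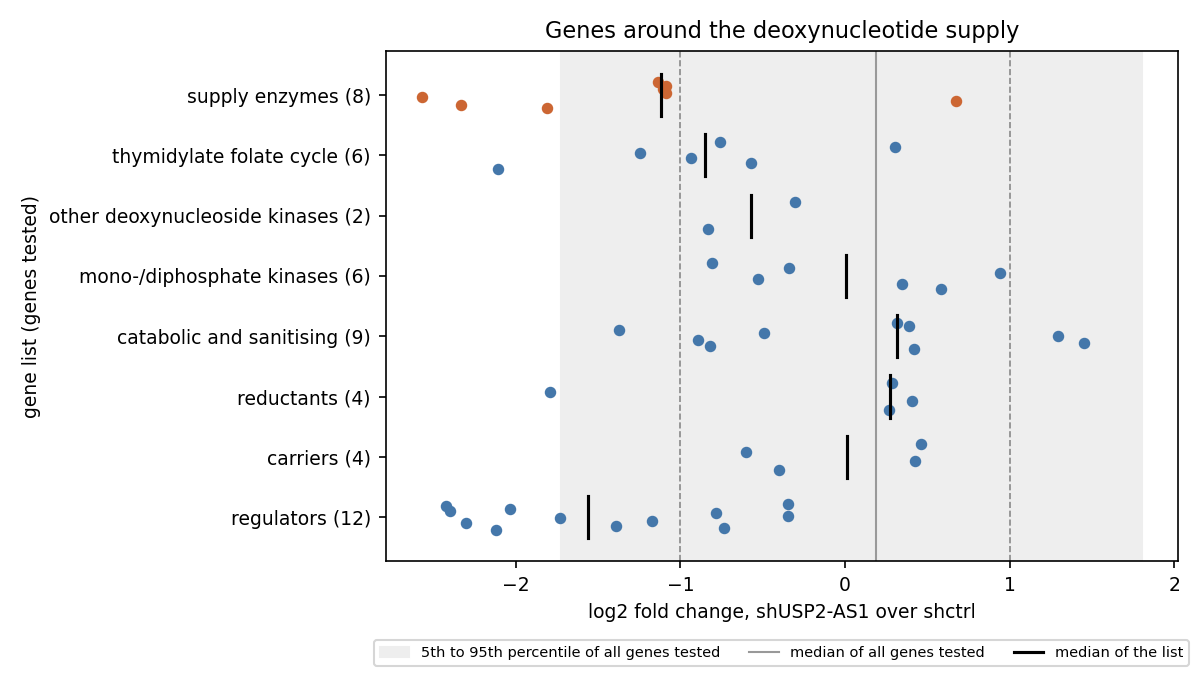
Log2 fold change, shUSP2-AS1 over shctrl, of each measured gene by list, with the list median (black line), the median of all genes tested (grey line at 0.19), their 5th to 95th percentile (shaded, -1.73 to 1.80) and the thresholds (dashed). The supply enzymes (median -1.12) and the regulators (median -1.56) lie mostly left of the other lists.

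By profile over the 4 libraries, the genes most like RRM2 among 6044 with a mean of at least 100 were SHCBP1, IPO11, SAPCD2, DBF4B and KIF4A. Their centred log2 profiles differed from that of RRM2 by a root mean square of 0.03 to 0.05, and 43 genes lay within 0.1. With 2 groups of 2 libraries this likeness mostly reflects a log2 fold change near that of RRM2, here -2.37 to -2.27.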

How the data were processed

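A549 cells received shctrl or shUSP2-AS1 lentivirus, with 2 poly(A)-selected libraries per group. Per the labels, the submitters' processing notes name HISAT2 (2.0.5), featureCounts (1.5.0-p3), DESeq2 (1.20.0) and hg38, and the counting annotation and strand setting are not given in the sources used here. The authors deposited a normalised signal per gene and library (reads over the size factor of the library) for 6828 genes, all below an adjusted p of 0.05 in their comparison. The authors also deposited log2 fold changes, p-values and adjusted p-values of that DESeq2 comparison, of which only the largest adjusted p was read, to see how the table was filtered. The library columns were mapped by their names (scramble or shRNA) and replicate numbers, and 0 columns of other samples were present.

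Every value (100% in each library, within 0.01 of a whole number) gave whole reads when divided by the value of 1 read, 0.966 to 1.10 in shctrl and 0.880 to 1.05 in shUSP2-AS1. limma (3.58.1, R 4.3.3) was fitted with a trend to log2(value + 1) of the 6812 genes with a mean of at least 10. Fold changes are therefore on the log2(value + 1) scale, and 16 genes were left out. edgeR (4.0.16) and DESeq2 (1.42.0) were run on the recovered reads as alternatives. The methods were tested on simulated data. The annotation was GENCODE release 44, in which all 8 enzymes have the interval the table gives, and promoters came from RefSeq. The precision of a value is limited by its reads, which ran from 328 to 4105 per library for these enzymes.

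The enzymes and the gene lists were chosen with earlier results of these data known. Named besides the enzymes were USP2-AS1, E2F1, up to 4 called genes per list with the largest change, a listed gene overlapping an enzyme and the 5 profiles most like RRM2. Values of DCK, DGUOK, NME4, AK3 and TXN were added after they were seen, and values of some genes that this rule would name are not reported here. The alternatives were other scalings, filters, a pseudocount of 0.1, count tests, a test against 2-fold, no fold threshold, a replicate block, each library left out and other lengths.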

Additional observations from a re-analysis of the deposited data

How the results depend on the processing

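Each of the 8 enzymes was refitted under 15 alternatives. Of these 120 values 114 kept the call or, for RRM2B, stayed uncalled, 6 lost the call and 0 changed direction. The filters, the replicate block and the test against 2-fold leave each fold change as it was, so under them the direction could not change. Except under the test against 2-fold, the call then rests on the same fold change. The number called lower was 3 in place of 7 under the test against 2-fold and 6 to 7 when a library was left out, DUT being lost without shUSP2-AS1 replicate 1 and DCTPP1 without shctrl replicate 1. The number called higher was 1, RRM2B, with no fold threshold. Over all genes, the test against 2-fold called 523 lower and 541 higher, and no fold threshold 3362 lower and 3449 higher, in place of 922 and 1098. The list of enzymes that break down or sanitise nucleotides had 2 genes called lower in place of 1 under RLE scaling and under DESeq2 with its own size factors, which also gave 3 in place of 2 for the folate cycle. The difference in the RRM2B share was 47.9 points without division by length, 46.6 with canonical lengths (chosen after seeing the data) and 45.2 to 45.6 with a library left out, against 45.4. The difference in the ratio of small to large subunits was 2.10, 1.24 and 1.64 to 1.97 under the same settings, against 1.81. In fits that leave out a library, the lone library of a group is assumed to vary like the other group.

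With the replicate number as a block, 7 enzymes were called lower and 0 higher, and 922 genes lower and 1098 higher over the table. Each group holds both replicate numbers, so the block leaves every fold change as it was. As the fold change carries the call, the equal counts cannot show whether a replicate effect is present. The correlation of the replicate differences between the groups was -0.04 over genes. This value cannot show whether libraries of the same number were prepared together, which is not given in the sources used here. Genes with fewer than 10 reads in a library, USP2-AS1 among them, gave no value under the filter on reads. With 2 libraries per group no exact test can pass 0.05.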

Other observations

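Interferon-stimulated genes were higher in the shUSP2-AS1 libraries as a list. SAMHD1 belongs to this group but was not analysed here, and its own change does not follow from the list. Of 19 listed, 17 were measured, 12 were called higher (16.1% of all genes tested were), 0 lower, and all 17 had positive log2 fold changes, with a median of 1.79 beside 0.19 over all genes. IRF7, which induces interferon genes, was at 8.74 in shctrl and 94.3 in shUSP2-AS1, and BST2 (tetherin) at 5.16 and 53.3. IFI27 was at 4.83 and 17.6 in shctrl and at 131 and 40.5 in shUSP2-AS1, so that its replicates lay far apart. Its log2 fold change of 2.83 was 2.0 without replicate 1 of either group and 3.67 without replicate 2 of either group. IFI44L was at 11.6 and 2.20 in shctrl and at 51.5 and 34.3 in shUSP2-AS1, with a log2 fold change of 2.76, which was 3.75 without shctrl replicate 1 and 1.77 without shctrl replicate 2. These 4 genes had 2 to 16 reads in the control libraries.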
